A study of Mus musculus with 56 samples.

Results

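The E2F factors and the retinoblastoma family were followed in the whole blood of C57BL/6 mice after a single injection of 90Sr. The 10 genes were chosen by name, as E2f1, E2f2, E2f3, E2f4, E2f8, Rb1, Rbl1, Rbl2, Tfdp1 and Tfdp2, and all 10 were among the 18802 genes that passed the detection filter. They are represented on the array by 14 probes, since E2f3, Rbl1, Tfdp1 and Tfdp2 have more than 1 probe each. Each of 56 mice was measured on its own Agilent array, with a single dye and probes for the whole mouse genome. The mice were C57BL/6 animals about 10 to 12 weeks old on arrival, with no altered allele named. Irradiated animals received 200 kBq of 90SrCl2 by tail vein, with a trace of a second strontium isotope added for whole-body counting, and control mice received the saline vehicle. Blood was taken by cardiac puncture at day 4 from 4 control and 4 90Sr mice, and at days 7, 9, 25 and 30 from 6 control and 6 90Sr mice at each day. Since 90Sr stays in bone and keeps irradiating, a later day is also a higher accumulated dose, and day and dose cannot be told apart here. The question at each day was how blood gene expression in 90Sr-injected mice differs from that in the controls of the same day.

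E2F factors bind DNA as dimers with a DP partner, which is encoded by Tfdp1 or Tfdp2, and they switch on the genes of DNA replication at the passage from G1 to S phase. E2f1, E2f2 and E2f3 are activators, E2f4 acts mainly as a repressor together with pocket proteins, and E2f8 represses without a DP partner. The pocket proteins pRB (Rb1), p107 (Rbl1) and p130 (Rbl2) hold E2F targets silent until cyclin-dependent kinases phosphorylate them. In blood-forming tissue the family is known for cell cycle exit in lymphocytes and for the maturation of red cell precursors, and E2f2 and Rb1 are known for their part in late erythroid differentiation.

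E2F genes are themselves known targets of E2F. RefSeq promoters (GRCm38.p6, 250 bases before and 50 bases from the start of transcription on) were found for 8 of the 10 genes, as 12 promoters, and E2f4 and Rb1 were not among them. The promoters were searched on both strands for the E2F octamers TTTGGCGC, TTTCCCGC, TTTCGCGC and TTTGCCGC. They were present in 744 of 32851 mouse promoters (2.26%) and in 5 of the 12 promoters here, which belong to E2f2, E2f3, Rbl1 and Tfdp1. The Tfdp1 pair overlaps and holds the same octamer. Those of E2f2, E2f3 and Rbl1 are shown because these genes carry most of the changes described below, and a Tfdp2 promoter is shown beside them as the other gene that was called higher. Capitals mark the octamer, and each sequence is printed 5′ to 3′ in the direction of its gene.
E2f2, chr4:136172024-136172323, plus strand: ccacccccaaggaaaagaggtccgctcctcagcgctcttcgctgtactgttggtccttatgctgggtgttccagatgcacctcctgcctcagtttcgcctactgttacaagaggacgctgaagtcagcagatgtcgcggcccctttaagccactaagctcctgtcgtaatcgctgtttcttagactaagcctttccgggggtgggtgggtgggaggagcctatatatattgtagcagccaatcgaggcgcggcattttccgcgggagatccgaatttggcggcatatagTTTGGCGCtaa
E2f3, chr13:29986014-29986313, minus strand: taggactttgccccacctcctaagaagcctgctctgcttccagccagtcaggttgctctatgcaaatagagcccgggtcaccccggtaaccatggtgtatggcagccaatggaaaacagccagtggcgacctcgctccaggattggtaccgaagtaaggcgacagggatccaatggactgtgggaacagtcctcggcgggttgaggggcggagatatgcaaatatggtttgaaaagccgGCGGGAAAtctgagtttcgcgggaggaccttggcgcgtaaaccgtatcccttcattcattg
Rbl1, chr2:157204485-157204784, minus strand: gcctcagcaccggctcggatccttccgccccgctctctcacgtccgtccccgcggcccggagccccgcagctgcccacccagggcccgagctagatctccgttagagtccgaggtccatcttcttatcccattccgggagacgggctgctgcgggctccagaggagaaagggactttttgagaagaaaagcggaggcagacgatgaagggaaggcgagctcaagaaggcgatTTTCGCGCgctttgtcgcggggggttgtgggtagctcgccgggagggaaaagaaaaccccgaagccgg
Tfdp2, chr9:96258455-96258754, plus strand: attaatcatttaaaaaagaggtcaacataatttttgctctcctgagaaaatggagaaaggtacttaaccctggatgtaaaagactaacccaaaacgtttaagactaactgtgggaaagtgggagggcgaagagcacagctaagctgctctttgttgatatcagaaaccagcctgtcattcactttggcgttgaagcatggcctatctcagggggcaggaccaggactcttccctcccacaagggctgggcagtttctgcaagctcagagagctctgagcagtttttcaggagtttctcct
The octamer of E2f2 begins 40 bases after the start, that of E2f3 ends 3 bases before its start and that of Rbl1 ends 10 bases before its start. The E2f3 match reads on the opposite strand. E2f2 and E2f3 have a second promoter each in the table, without an octamer, and neither of the Tfdp2 promoters holds one. Of the letters of other factors, CCAAT was found in 4 of the 12 promoters (37.4% of all promoters) and AGATAA or TGATAA, the core of a GATA site, in 0 of the 12 (18.6% of all promoters). A match is a description of the letters and not of binding. The windows follow the listed starts of transcription, and whether these are the main starts of a gene in blood was not tested. A window without an octamer, as for E2f1, therefore does not show that the gene lacks one.

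Values are given throughout as the log2 processed signal minus the median of the same array, so that 1 unit is a 2-fold difference and 0 is the array median. A gene was called at a day where the limma test of that day gave p under 0.001 and the change was at least 2-fold. The 90Sr arrays were dimmer than the control arrays on every day. Their median log2 signal was 3.575 against 4.204 in controls at day 4, 3.461 against 4.135 at day 7, 3.519 against 4.388 at day 9, 3.801 against 4.473 at day 25 and 3.492 against 4.095 at day 30 (medians over mice, two-sided exact permutation p = 0.0286 at day 4, 0.00216 at days 7, 9 and 25, and 0.00866 at day 30, of which 0.0286 and 0.00216 are the smallest the designs can give). Between 14389 and 24698 spots per array were well above background, and their median number was lower in 90Sr mice at every day. It was 21268.5 against 22887 in controls at day 4, 17517 against 20064 at day 7 and 15775.5 against 20769 at day 9. At day 25 it was 16719.5 against 20980 and at day 30 18100.5 against 24023.5. The two-sided exact permutation p was 0.0571 at day 4, 0.0281 at day 7 and 0.00216 at days 9, 25 and 30. The part of this brightness difference in the results was not tested, but the choice of scaling moved the median of all genes: scaling on the 75th percentile put the median log2 change of all genes at 0.47, 0.35, 0.31, 0.38 and 0.31 at the 5 days, where the array median put it at -0.01, 0.00, -0.08, -0.10 and 0.12. The 14 slides hold 4 arrays each, and at day 4 every slide held a single group, so that slide and treatment cannot be told apart at that day. At days 7, 9, 25 and 30, 1 slide per day held 2 control and 2 90Sr mice and the other slides a single group. Slide and treatment are therefore partly mixed at those days too. No slide held mice of more than 1 day, so a difference between days is also a difference between slides.

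Across the 10 genes and 5 days, 13 of 50 changes were called, 10 of them lower and 3 higher in 90Sr mice. E2f3, E2f4, Rbl1 and Rbl2 were called lower on 1 or more days. E2f2 and Tfdp2 were called higher. E2f1, E2f8, Rb1 and Tfdp1 were called at no day, as were 51.7% of all genes tested. The median log2 change of the 10 genes was -0.33, -0.36, 0.07, -0.60 and -0.24 at the 5 days in turn. E2f3 (4 days) and Rbl1 (3 days) were called lower at 3 or more days, as were 15.6% of all genes. The split depended on the scaling. With the 75th percentile in place of the median, 8 changes were called higher and 3 lower, and with the median of the probes detected on all arrays, 6 higher and 6 lower. Both scalings also raised the median log2 change of all genes, at day 4 to 0.47 and 0.35. The share of all genes called under them is not given here, so these counts are not read as a result about the family.

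At day 4, E2f3, Rbl1 and Rbl2 were lower, which is 3 of 10 genes, against 17.4% of all genes, and 0 of 10 were higher, against 2.14%. At day 7, E2f3 and Rbl1 were lower (2 of 10, against 12% of all genes) and 0 were higher (against 2.59%). At day 9, E2f3 and Rbl1 were lower (2 of 10, against 13.7%) and E2f2 was higher (1 of 10, against 4.41%). At day 25, E2f3 and E2f4 were lower (2 of 10, against 19.8%) and 0 were higher (against 5.7%). At day 30, Rbl2 was lower (1 of 10, against 16.1%) and E2f2 and Tfdp2 were higher (2 of 10, against 15.5%). These shares are near those of all genes, so the number of calls by itself does not set the family apart.

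Groups that do not overlap, in which every 90Sr mouse lay on the same side of every control mouse, were also counted. At day 4, E2f3, Rbl1, Rbl2 and Tfdp1 lay below the controls (32.2% of all genes did) and Tfdp2 above (18.2%). At day 7, E2f3, E2f4, Rbl1, Rbl2 and Tfdp1 lay below (23.7% of all genes) and E2f2 and E2f8 above (8.46%). At day 9, Rbl1 and Rbl2 lay below (18.5%) and E2f2 above (5.24%). At day 25, E2f3 and E2f4 lay below (27.6%) and 0 above (7.8%). At day 30, 0 lay below (13.4%) and E2f2, Rb1 and Tfdp2 above (15.1%).

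**Figure D1:**
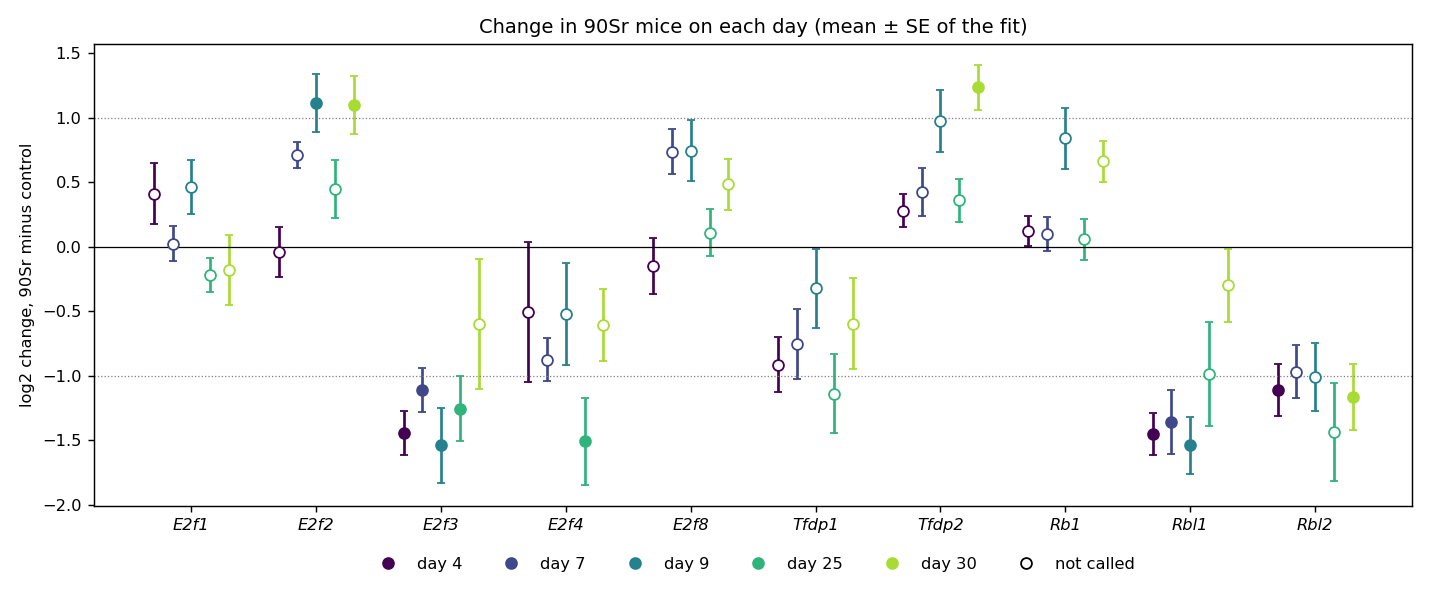
Log2 change of each of the 10 genes in 90Sr mice against controls (y axis, error bars are standard errors) at the 5 days in turn (x axis), with filled symbols for called changes and dotted lines at 2-fold. E2f3, Rbl1 and Rbl2 lie below 0 at all 5 days, and E2f2 and Tfdp2 lie near or above 1 at days 9 and 30.

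Among the activators, E2f2 was the gene that was higher, at days 9 and 30. Its probe (chr4:135750562-135750621, mm9) was well above background on all 56 arrays. At day 4 the control mice were at 10.63, 10.59, 10.71 and 10.72, and the 90Sr mice at 10.78, 10.999, 10.66 and 10.05, so that the groups overlapped (log2 change -0.04, SE 0.19). At day 9 the control mice spanned 9.62 to 10.57 with a median of 10.35, and the 90Sr mice 10.66 to 11.79 with a median of 11.46. The groups did not overlap, and the log2 change was 1.11 (SE 0.22, adjusted p = 0.00106). At day 30 the controls spanned 9.91 to 10.74 (median 10.23) and the 90Sr mice 10.86 to 11.94 (median 11.26), again without overlap, with a log2 change of 1.1 (SE 0.22, adjusted p = 0.000758). At day 7 all 6 90Sr mice (11.02 to 11.46, median 11.23) lay above all 6 control mice (10.49 to 10.62, median 10.53), but the log2 change of 0.71 (SE 0.10, adjusted p = 0.000166) was under 2-fold and was not called. At day 25 the ranges overlapped (controls 10.51 to 11.19, 90Sr 10.64 to 11.92) with a log2 change of 0.45 (SE 0.23).

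The calls of E2f2 at days 9 and 30 sat close to the 2-fold line. Without control replicate 6 the day 9 change was 0.99, and without 90Sr replicate 6 the day 30 change was 0.99, and neither was then called. Quantile normalization lowered them to 0.69 and 0.57, under the line. With the 75th percentile they were 1.51 and 1.28 and remained called, and the day 7 change of 1.06 was then called too.

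E2f3 went the other way. It encodes an activator E2F that is needed for proliferation in many cell types, and its representative probe (chr13:29998480-29998539, mm9) was lower in 90Sr mice at days 4, 7, 9 and 25. At day 4 the control mice were at 1.23, 1.41, 1.59 and 1.08 and the 90Sr mice at 0.23, -0.23, -0.12 and -0.34, with no overlap and a log2 change of -1.44 (SE 0.17, adjusted p = 0.000228). At day 7 the controls spanned 1.22 to 1.64 (median 1.41) and the 90Sr mice -0.21 to 0.89 (median 0.20), again with no overlap (log2 change -1.11, SE 0.17, adjusted p = 0.000237). At day 9 the controls spanned 0.20 to 1.52 (median 0.89) and the 90Sr mice -1.35 to 0.40 (median -0.82), and 5 of the 6 90Sr mice lay below every control (log2 change -1.54, SE 0.29, adjusted p = 0.000694). At that day none of the 90Sr arrays had this probe well above background, and the data bound the difference only as at least 1.16-fold. Such a bound sets the mean of the brighter group against the mean of the dimmer group. Each value of the dimmer group is first raised to at least the lowest signal of any probe well above background on its array.

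At day 25 the E2f3 controls spanned 1.12 to 1.86 (median 1.45) and the 90Sr mice -0.65 to 0.81 (median 0.47). The groups were apart, with a log2 change of -1.26 (SE 0.25, adjusted p = 0.000892). At day 30 the groups overlapped. The controls ran from -1.95 to 1.46 (median 1.12), where the lowest value is replicate 4, and the 90Sr mice from -0.78 to 0.88 (median 0.14). The change was -0.60 (SE 0.51), and -1.12 without control replicate 4, which was also not called. The probe was well above background on 32 of the 56 arrays, of which only 5 were 90Sr arrays. With the 75th percentile the changes at days 4, 7 and 25 were -0.96, -0.76 and -0.77 and were no longer called, and the change at day 9 of -1.15 was.

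E2f1 (probe at chr2:154385798-154385857, mm9), the founding member of the family, was not called at any day. Its log2 changes were 0.41 (SE 0.23), 0.02 (SE 0.13), 0.46 (SE 0.21), -0.22 (SE 0.13) and -0.18 (SE 0.27) at the 5 days in turn. Control mice ranged from 0.15 to 2.18 over all days and 90Sr mice from 0.37 to 2.07, and the groups overlapped at every day. With the 75th percentile the values at days 25 and 30 were 0.27 and 0.01, above 0.

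**Figure D2:**
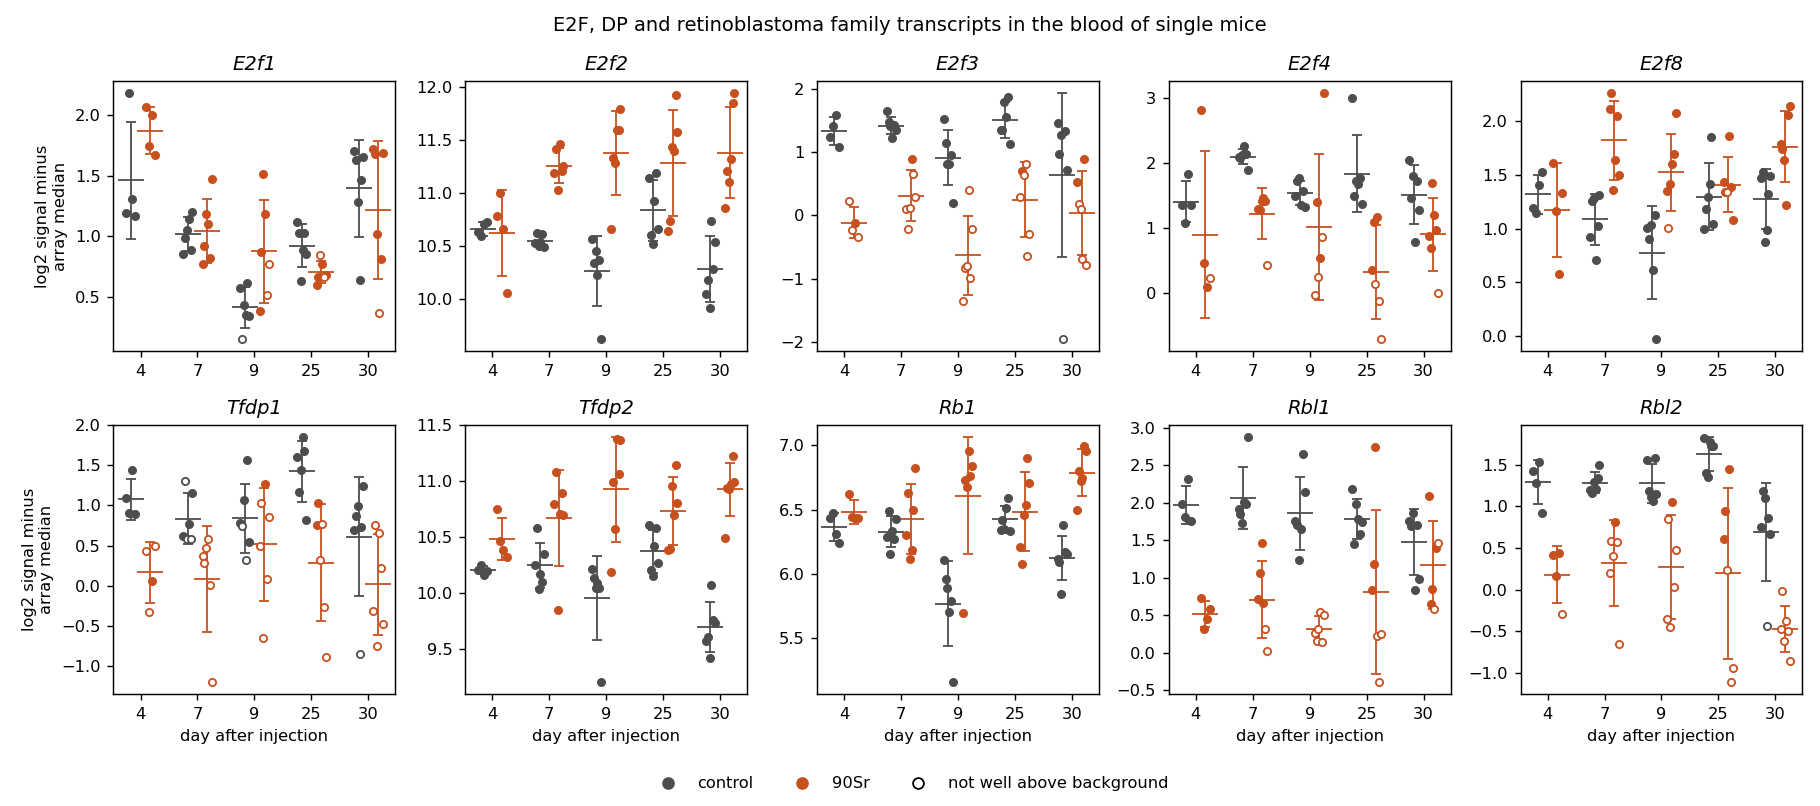
Level of each of the 10 genes in every mouse (y axis, log2 signal minus the array median) at each day (x axis), for control and 90Sr groups, with filled points where the spot was well above background, open points where it was not, and bars for the mean ± SD. E2f2, Rb1 and Tfdp2 are filled on all 56 arrays, while most open points of E2f3, Rbl1, Rbl2 and Tfdp1 are 90Sr mice.

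Of the repressor E2Fs, E2f4 (probe at chr8:107829156-107829215, mm9) was called lower at day 25 and at no other day. At that day the controls spanned 1.37 to 2.99 (median 1.69) and the 90Sr mice -0.69 to 1.17 (median 0.25), with no overlap and a log2 change of -1.51 (SE 0.34, adjusted p = 0.00174). Leaving out 1 array ended this call in 6 of 12 cases (control replicates 3 and 5 and 90Sr replicates 1, 3, 5 and 6), with changes between -1.67 and -1.28 over the 12. It was also not called in any of the other scalings, with -1.02 for the 75th percentile. At day 7 the 90Sr mice (0.44 to 1.47, median 1.35) lay below the controls (1.89 to 2.26, median 2.10), and the log2 change of -0.88 (SE 0.16, adjusted p = 0.000701) was under 2-fold. At day 4 a single mouse separated itself. The controls were at 1.36, 1.09, 1.83 and 1.36 and the 90Sr mice at 2.80, 0.47, 0.10 and 0.24. The change of -0.51 (SE 0.54) became -1.14 without 90Sr replicate 1 and was then called. At days 9 and 30 the changes were -0.52 (SE 0.40) and -0.61 (SE 0.28), with overlapping groups. The day 9 change was -0.93 without 90Sr replicate 6, the mouse at 3.06, and -0.31 without 90Sr replicate 1, and was not called in either case.

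E2f8 (probe at chr7:56121860-56121919, mm9), an atypical E2F that represses E2F targets late in S phase, was not called. Its log2 changes were -0.15 (SE 0.22) at day 4, 0.74 (SE 0.18, adjusted p = 0.00312) at day 7, 0.75 (SE 0.23, adjusted p = 0.0175) at day 9, 0.11 (SE 0.18) at day 25 and 0.49 (SE 0.20, adjusted p = 0.0426) at day 30. All 6 90Sr mice of day 7 (1.36 to 2.26) lay above the controls (0.71 to 1.31), and 5 of 6 did so at days 9 and 30. With the 75th percentile the changes at days 7 and 9 were 1.08 and 1.14 and were called. Of the E2F genes outside the list, E2f6 and E2f7 were tested and, on the array median, not called at any day, and E2f5 did not pass the detection filter.

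The DP partners split. Tfdp2 (representative probe at chr9:96219269-96219328, mm9) was higher at day 30, where the controls spanned 9.42 to 10.08 (median 9.67) and the 90Sr mice 10.49 to 11.23 (median 10.96), with no overlap and a log2 change of 1.24 (SE 0.17, adjusted p = 9.64e-05). No array left out alone ended this call. It was lost under quantile normalization (0.75), under normexp (2.11) and with slide as a fixed block (0.98), and it was kept with slide as a random block (1.23). The fixed block takes the change only from the slide that held both groups. At day 9 the controls spanned 9.20 to 10.22 and the 90Sr mice 10.19 to 11.38, and 5 of 6 90Sr mice lay above every control. The change of 0.98 (SE 0.24, adjusted p = 0.00464) missed both limits of the call, and with the 75th percentile it was 1.37 and was called.

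At day 4 the Tfdp2 controls were at 10.20, 10.25, 10.16 and 10.19 and the 90Sr mice at 10.75, 10.47, 10.39 and 10.32. These groups did not overlap, although the change was only 0.28 (SE 0.13). The changes at days 7 and 25 were 0.42 (SE 0.19) and 0.36 (SE 0.17), and both groups of ranges overlapped.

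Tfdp1, which encodes DP1 (representative probe at chr8:13377791-13377850, mm9), was not called with its representative probe. The log2 changes were -0.91 (SE 0.21), -0.75 (SE 0.27), -0.32 (SE 0.31), -1.14 (SE 0.30) and -0.60 (SE 0.35) at the 5 days, of which those at days 4, 7 and 25 had adjusted p = 0.00577, 0.0299 and 0.00526. At day 4 the controls were at 1.09, 0.90, 1.44 and 0.89 and the 90Sr mice at 0.43, -0.33, 0.06 and 0.50, with no overlap. The probe was well above background on 26 of the 56 arrays and on no 90Sr array of days 7 and 30. The day 7 difference is bounded as at least 1.2-fold, and no fold can be given at day 30.

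Among the pocket proteins, Rbl1 (representative probe at chr2:156972143-156972202, mm9) was lower at days 4, 7 and 9. p107 is known to rise in cells that cycle, and Rbl1 is itself an E2F target. At day 4 the controls were at 1.98, 1.81, 2.32 and 1.76 and the 90Sr mice at 0.72, 0.31, 0.45 and 0.58, apart by a log2 change of -1.45 (SE 0.16, adjusted p = 0.000196). At day 7 the controls spanned 1.73 to 2.88 (median 1.95) and the 90Sr mice 0.02 to 1.46 (median 0.69), a log2 change of -1.36 (SE 0.25, adjusted p = 0.00058). At day 9 the controls spanned 1.24 to 2.66 (median 1.73) and the 90Sr mice 0.14 to 0.54 (median 0.28), a log2 change of -1.54 (SE 0.22, adjusted p = 0.000132). The groups did not overlap at any of these 3 days. At day 9 no 90Sr array was well above background, and the difference is bounded as at least 2.16-fold.

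At the later days Rbl1 was not called. The change was -0.98 (SE 0.40) at day 25, where 5 of 6 90Sr mice lay below all controls and replicate values reached from -0.40 to 2.74, and -0.30 (SE 0.28) at day 30. The test of a difference between days did not pass for Rbl1 (adjusted p = 0.109), so the later days are not shown to differ from the earlier ones. The calls at days 7 and 9 remained under the 75th percentile, with -1.01 and -1.15, while that at day 4 was -0.97 and was lost.

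Rbl2 (probe at chr8:93647120-93647179, mm9), which encodes p130, the pocket protein of resting cells, was lower at days 4 and 30. At day 4 the controls were at 1.42, 1.28, 1.53 and 0.92 and the 90Sr mice at 0.42, 0.17, 0.44 and -0.30, without overlap (log2 change -1.11, SE 0.20, adjusted p = 0.00169). At day 30 the controls spanned -0.44 to 1.19 (median 0.81) and the 90Sr mice -0.86 to -0.01 (median -0.49). The groups overlapped through control replicate 4, and the log2 change was -1.16 (SE 0.26, adjusted p = 0.00133). No 90Sr array of day 30 was well above background, which bounds the difference as at least 1.1-fold.

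The changes of Rbl2 at days 7, 9 and 25 were of like size, -0.97 (SE 0.21, adjusted p = 0.00152), -1.01 (SE 0.26, adjusted p = 0.00585) and -1.44 (SE 0.38, adjusted p = 0.00472), and missed the call through the size or the p-value. All 6 90Sr mice lay below the controls at days 7 and 9, and 5 of 6 at day 25. The probe was well above background on only 1 of the 6 90Sr arrays at each of days 7 and 9. At day 25 it was well above background on 3 of the 6. The signal therefore limits the size of the difference that can be read at these days. The calls were sensitive to single arrays. That at day 4 was lost without any of 5 of the 8 arrays (control replicates 1, 2 and 3 and 90Sr replicates 2 and 4) and that at day 30 without any of 7 of the 12 (control replicates 1, 2, 3 and 5 and 90Sr replicates 3, 5 and 6). The day 4 call was also lost with the 75th percentile (-0.63), detected probes (-0.74), quantile normalization (-0.93) and normexp (-0.29). The day 30 call remained with detected probes (-1.15) and was lost with the 75th percentile (-0.98), quantile normalization (-1.33) and normexp (-0.10).

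Rb1, which encodes the retinoblastoma protein itself, was not called at any day. Its probe (chr14:73595408-73595467, mm9) is printed as 10 spots on each array, which differed by a median SD of 0.0712 log2 units and at most 0.132, so that the Rb1 values carry little spot noise. At day 30 all 6 90Sr mice (6.50 to 7.00, median 6.77) lay above all 6 controls (5.84 to 6.38, median 6.13), and the log2 change of 0.66 (SE 0.16, adjusted p = 0.00222) passed the p-value limit but not 2-fold. At day 9 the controls spanned 5.16 to 6.11 and the 90Sr mice 5.70 to 6.95, and 5 of 6 90Sr mice lay above every control (log2 change 0.84, SE 0.23, adjusted p = 0.00908). Without the low 90Sr replicate 1 that change was 1.02 and was called, and with the 75th percentile it was 1.23 and was called as well. At days 4, 7 and 25 the changes were 0.12 (SE 0.12), 0.10 (SE 0.13) and 0.06 (SE 0.16).

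For the 4 genes with another probe, the probes were set side by side. The second Tfdp2 probe gave 0.21, 0.84, 1.40, 0.41 and 1.25 at the 5 days and was called higher at days 9 and 30, in the same direction as the representative probe at every day. The second Tfdp1 probe gave -0.69, -1.41, -0.93, -1.43 and -0.57 and was called lower at days 7 and 25, where the representative probe was below 0 but not called. It was not well above background in the 90Sr group of days 7 and 9 on any array, so that the differences there are bounded only as at least 1.39-fold and at least 1.1-fold. The second E2f3 probe (chr13:30005369-30008755, mm9) was well above background on 13 of the 56 arrays, of which 3 were 90Sr arrays, all of day 4. Its measured change at day 4 was 0.42 (SE 0.24) and was not called, opposite in sign to the -1.44 of the representative probe. At that day the representative probe was itself well above background on only 1 of the 4 90Sr arrays. At the later days, with no 90Sr array well above background for the second probe, no direction is given. The second Rbl1 probe was well above background on 14 of the 56 arrays and on 1 90Sr array, was called at no day, and gives no direction either. The lower levels of E2f3 and Rbl1 therefore rest on 1 probe each. When the probes of a gene were averaged, none of the E2f3 and Rbl1 calls remained, with the dimmer second probe then having equal weight.

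**Figure D3:**
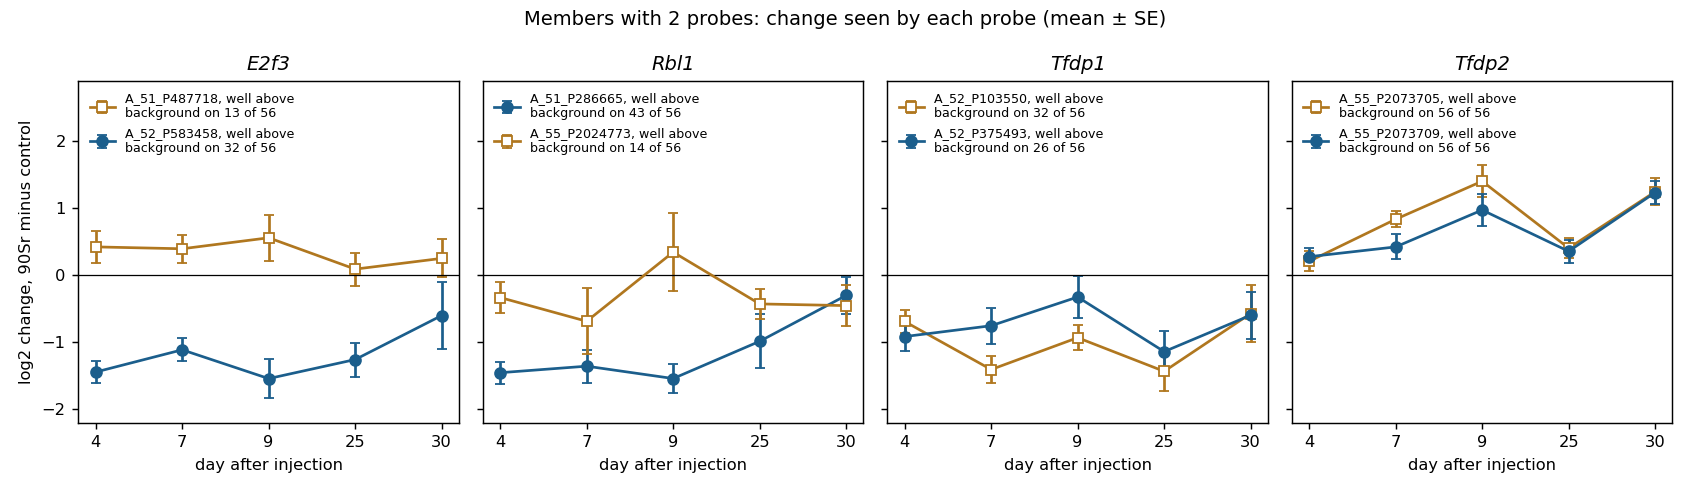
Log2 change in 90Sr mice against controls (y axis, with standard errors) at each day (x axis) for both probes of E2f3, Rbl1, Tfdp1 and Tfdp2, as blue circles for the representative probe and open brown squares for the other. The Tfdp2 probes lie above 0 at every day, and the second probes of E2f3 and Rbl1 were well above background on only 13 and 14 of the 56 arrays, so that the sign of most of their points is not a measured direction.

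Whether the change differed between days was tested with an F test of the interaction in 1 limma fit of all 10 groups. It passed for E2f2 (adjusted p = 0.0131), Rb1 (adjusted p = 0.00878) and Tfdp2 (adjusted p = 0.011), which is 3 of 10 genes, against 22.8% of all genes. In each of these, the largest changes were at days 9 and 30. The test did not pass for E2f3 (adjusted p = 0.508), Rbl2 (adjusted p = 0.859) or the others. With slide as a random block none of the 10 passed (adjusted p = 0.0868, 0.05 and 0.0669 for E2f2, Rb1 and Tfdp2), and with the 75th percentile Rb1 and E2f1 passed (adjusted p = 0.0338 and 0.0362). Of all 18802 genes, 4296 passed in the main fit, 1051 with slide as a random block and 3990 with the 75th percentile.

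The control mice themselves differed between days for E2f1, E2f2, Rb1 and Tfdp2, which is 4 of 10 genes, against 56.3% of all genes. Control means of E2f1 ranged from 0.41 at day 9 to 1.46 at day 4 (adjusted p = 0.000137), and those of Rb1 from 5.77 at day 9 to 6.42 at day 25 (adjusted p = 0.00227). For Tfdp2 they ranged from 9.69 at day 30 to 10.37 at day 25 (adjusted p = 0.00897) and for E2f2 from 10.26 at day 9 to 10.84 at day 25 (adjusted p = 0.0393). E2f2, Rb1 and Tfdp2 thus had low control means at day 9 or 30, the days on which 90Sr and control mice were farthest apart. From day 7 on, the 90Sr means of E2f2 lay between 11.26 and 11.38, and its control means between 10.26 and 10.84. For Rb1 the 90Sr means lay between 6.42 and 6.79 and the control means between 5.77 and 6.42. For Tfdp2 they lay between 10.67 and 10.93 in 90Sr mice and between 9.69 and 10.37 in controls. The part of the control values in those differences was not tested further. With slide as a random block the difference between control days was no longer past the limit for E2f2 (adjusted p = 0.11). Of all 18802 genes, 6068 then passed, against 10591 in the main fit.

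At days 7, 9, 25 and 30, 1 slide per day held 2 control and 2 90Sr mice, which allowed a comparison free of slide. The mice on these slides are among those that made the calls, so the comparison is not independent of them and a kept sign adds little. On these slides all 10 changes called at those days kept their sign, and 2 of 2, 3 of 3, 0 of 2 and 1 of 3 were again at least 2-fold at days 7, 9, 25 and 30. E2f3 differed by -1.36, -1.67 and -0.997 at days 7, 9 and 25, and Rbl1 by -1.51 and -2.19 at days 7 and 9. E2f2 differed by 1.004 and 0.62 at days 9 and 30, Tfdp2 by 0.98 and Rbl2 by -1.01 at day 30, and E2f4 by -0.85 at day 25. Of the changes that were not called, E2f2, Rb1 and Tfdp2 at day 25 lay below 0 on the shared slide (-0.24, -0.32 and -0.03) and above 0 over all mice.

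**Figure D4:**
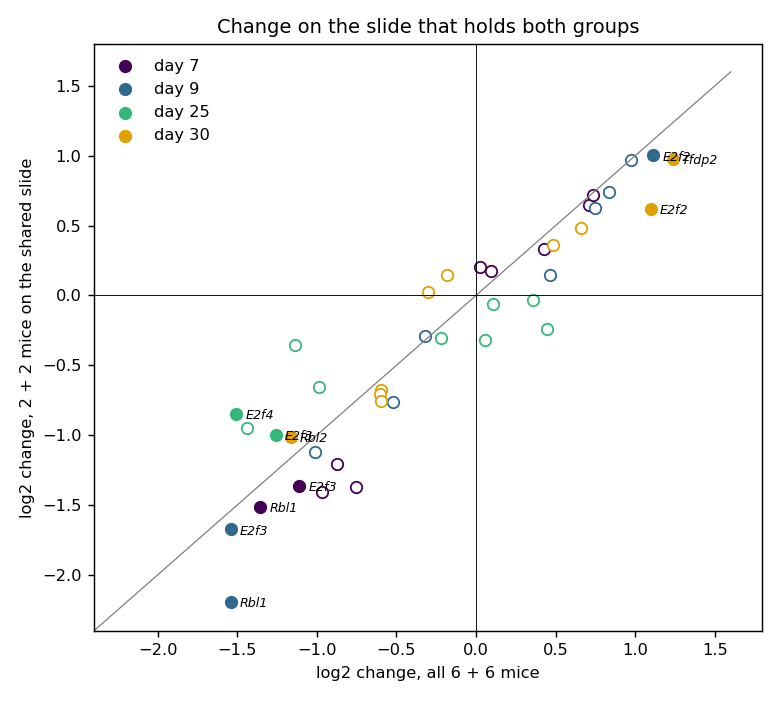
Log2 change on the slide that held both groups (y axis, 2 control and 2 90Sr mice) against the log2 change over all 12 mice (x axis) for each gene at days 7, 9, 25 and 30, with filled points for called changes and a grey line of equality. The mice of the y axis are among the 12 of the x axis, so the axes are not independent. All filled points lie on the same side of 0 on both axes.

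The genes around the family were described from lists of pathway members, as counts of calls and without a test of the list. Their counts are to be read against all genes tested, of which 17.4%, 12%, 13.7%, 19.8% and 16.1% were called lower at the 5 days and 2.14%, 2.59%, 4.41%, 5.7% and 15.5% higher, with a median log2 change between -0.10 and 0.12. These shares hold for the array median only. Those under the other scalings are not given here, so list counts under other scalings have no such share beside them. Among the kinases that phosphorylate pocket proteins, Cdk2 was lower at days 4, 7, 25 and 30 (log2 change -1.33, -1.65, -1.07 and -1.81). Cdk7, the kinase that activates other cyclin-dependent kinases, was higher at days 4 and 7 (1.35 and 1.07), and its partner cyclin H (Ccnh) was lower at day 30 (-1.33). Cdk4 (1.70) and Ccne1 (1.35) were higher at day 30. The other 4 of the 9 genes tested in this list were not called at any day. Of 7 inhibitors of these kinases, Cdkn1a, the p53 target p21, was higher at days 4, 7, 9 and 25 (1.94, 1.69, 2.04 and 1.24), and at day 30 its change was 0.24 (SE 0.35) and was not called. Cdkn2c was higher at days 9 and 30 (1.40 and 1.42) and Cdkn2b at day 30 (1.69).

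Of 16 corepressors that are recruited by pocket proteins, 8, 5, 6, 8 and 9 were called lower at the 5 days in turn (against 17.4%, 12%, 13.7%, 19.8% and 16.1% of all genes), and 0, 0, 2, 0 and 1 higher. Their median log2 change was -1.24, -0.92, -0.74, -1.09 and -1.16. Sin3a, the scaffold of a histone deacetylase complex, was lower at all 5 days (-1.99, -1.43, -1.47, -1.87 and -2.08), as were Smarca4, an ATPase of chromatin remodeling, and Ezh2, the methyltransferase of the Polycomb complex. Arid4b was lower at 4 days. Rbbp4, which is also a subunit of the DREAM and MuvB complexes, was higher at days 9 and 30 (1.51 and 1.204), and on the array median it was the only called gene among the 8 of those complexes that were tested. Of the 8, 4 were called higher at 1 or more days with the 75th percentile, and 3 with detected probes or quantile normalization.

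Of 50 G1/S genes that E2F is known to activate, 10, 6, 4, 12 and 9 were called lower and 0, 1, 2, 0 and 5 higher at the 5 days in turn, with a median log2 change between -0.33 and -0.16. The lower calls were close to the share of all genes called lower (17.4%, 12%, 13.7%, 19.8% and 16.1%), so that these counts do not set the list apart. Pold1, the catalytic subunit of DNA polymerase delta, was lower at all 5 days (-1.64, -1.58, -1.91, -2.01 and -1.93), as was the licensing factor Cdt1 (-1.39, -1.17, -1.21, -1.38 and -1.44). Mcm3, a subunit of the replicative helicase, was lower at 4 days. Over the 5 days this list gave 8 calls higher and 41 lower, which turned to 21 higher and 12 lower with the 75th percentile and 11 higher and 16 lower with quantile normalization, so that its direction depended on the scaling. The corepressors, with 3 higher and 36 lower, had 7 higher and 15 lower with the 75th percentile.

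Of 31 genes of G2 and mitosis, 1, 2, 11, 3 and 10 were called higher at the 5 days in turn (against 2.14%, 2.59%, 4.41%, 5.7% and 15.5% of all genes) and 0 lower, and the median log2 change was 0.27, 0.46, 0.54, 0.40 and 0.87. Ccnb2, a mitotic cyclin, was higher at days 7, 9, 25 and 30 (1.101, 1.61, 1.005 and 1.42), Nuf2 of the kinetochore at days 7, 25 and 30 (1.28, 1.49 and 2.06), and Mki67, which encodes the proliferation marker Ki-67, at days 9 and 30 (1.62 and 1.38). None was called lower in any of the 4 alternatives for scaling and background, and the number of calls over the 5 days was 27 here, 53 with the 75th percentile and 3 with the normexp correction.

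**Figure D5:**
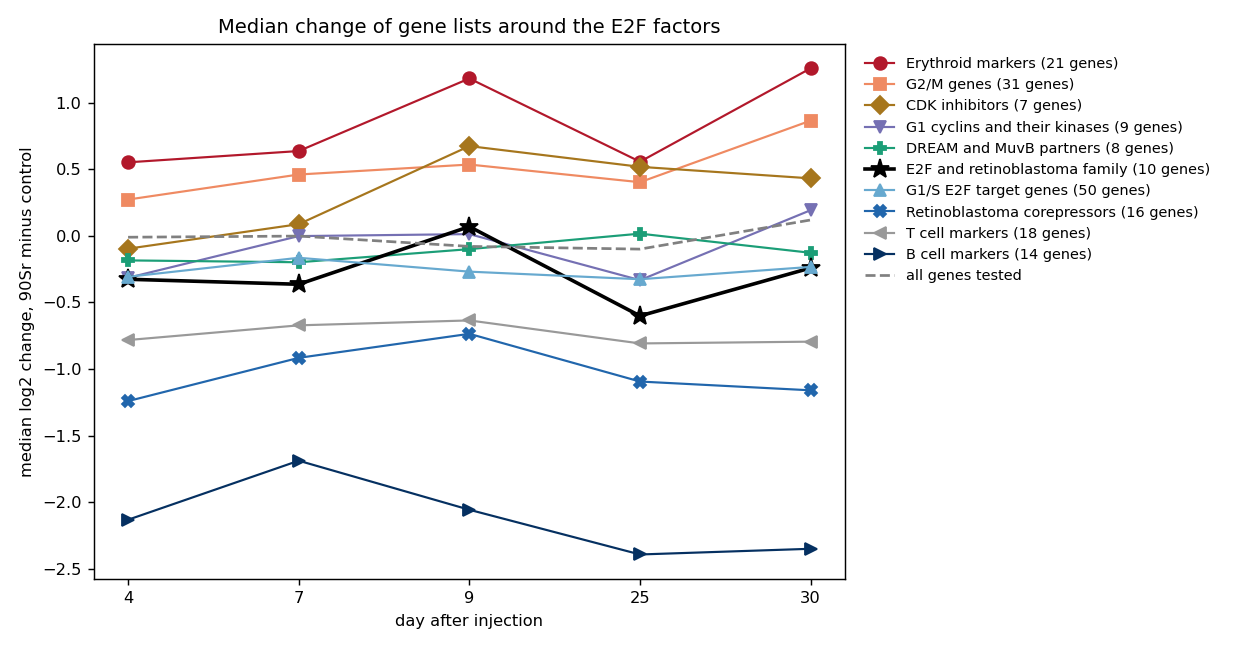
Median log2 change in 90Sr mice against controls (y axis) at each day (x axis) for the 10 genes, 9 lists of pathway genes and cell type markers, and all genes tested (dashed line). B cell markers lie lowest at every day, between -2.39 and -1.69, the corepressors between -1.24 and -0.74, and erythroid markers and G2/M genes lie above 0 at all 5 days.

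Markers of blood cell types were counted in the same way. In whole blood, fewer cells of a type and less RNA per cell cannot be told apart. Of 14 B cell markers tested, 11 or 12 were called lower at each day (12% to 19.8% of all genes were), among them Ebf1, the B lineage factor (-3.13, -2.27, -3.20, -2.60 and -3.11), and Cd79b of the B cell receptor (-2.32, -1.89, -2.42, -2.67 and -3.03). The summed log2 level of the B cell markers spanned 9.77 to 10.94 in control mice over all days and 7.38 to 9.64 in 90Sr mice, and 9 of the 14 were well above background on every array and 0 on none. Between 1 and 3 of 18 T cell markers, 3 and 5 of 11 monocyte markers and 0 and 2 of 13 neutrophil markers were called lower at a day. The T cell and neutrophil counts were close to or below the share of all genes, and the monocyte counts lay above it. The median log2 change of the T cell, NK cell, neutrophil and monocyte markers was nevertheless below 0 at all 5 days. For T cell markers it was -0.78, -0.67, -0.63, -0.81 and -0.79 in turn, and for NK cell markers -0.18, -0.58, -0.72, -0.78 and -0.59. It lay between -0.84 and -0.18 for neutrophil and between -0.92 and -0.30 for monocyte markers. Of the 11 monocyte markers, 6 were called lower and 1 higher at 1 or more days. Ccr2 (-2.21, -2.32, -2.53, -2.58 and -2.84), Cx3cr1 and Ly6c1 were lower at all 5 days. A summed level follows the brightest genes of a list, and the median summed level of the monocyte markers was no lower in 90Sr mice than in controls at any day. NK cell and platelet markers had at most 1 call at any day.

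Erythroid markers, which stand for young red cells in blood, were called mainly at days 9 and 30 on the array median. Of 21 tested, of which 20 were well above background on every array, 0, 1, 14, 0 and 15 were called higher at the 5 days in turn (against 2.14%, 2.59%, 4.41%, 5.7% and 15.5% of all genes) and 0 lower, with a median log2 change of 0.55, 0.64, 1.18, 0.56 and 1.26. Ahsp, the chaperone of alpha globin, was higher at days 7, 9 and 30 (1.37, 1.40 and 1.26), and Rhd (1.51 and 1.37), Trim10 (1.24 and 1.73) and Kel (1.18 and 1.61) at days 9 and 30. The number of calls over the 5 days depended on the scaling. It was 30 here, 68 with the 75th percentile, 57 with detected probes, 22 with quantile normalization and 5 with normexp, and 0 were lower in each. With the 75th percentile 20 of the 21 were called at 1 or more days and 3 at all 5 days. The summed level of these markers did not overlap between groups at days 4, 7, 9 and 30 (at day 9 15.6 to 16.5 in controls and 16.6 to 17.5 in 90Sr mice, at day 30 15.7 to 16.7 and 16.9 to 17.6). At day 25 it overlapped narrowly. Among single genes, 18.2%, 8.46%, 5.24% and 15.1% lay wholly above the controls at days 4, 7, 9 and 30. The part of a change in the makeup of the blood in the values of E2f2, E2f3, E2f4, Rbl1, Rbl2 and Tfdp2 was not tested.

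The genes whose levels were most alike over the 56 arrays were listed for the 6 called members, as a description that shares the same arrays and scaling. With each group mean subtracted, so that only differences among mice of a group remained, E2f2 was most like Gm15800 and Asb1 (Pearson r = 0.90 for both), and Tfdp2 most like Sh3glb1 (0.94), Cdkl1 (0.93) and Ghitm (0.93). E2f3 was most like Mcfd2 and Camk2g (0.79 for both) and Gsn (0.78), E2f4 most like Ftsj1 (0.72) and Rbl1 most like Elf1 and Scfd2 (0.74 for both). Rbl2 was most like Rad50 (0.86), Ranbp1 (0.86) and Dock10 (0.85). Without the subtraction the highest values were 0.94 for E2f2 with Epb4.1 and with Cul4a, 0.90 for E2f3 with Slu7, 0.79 for E2f4 with Mtfmt, 0.85 for Rbl1 with Ralgapa1, 0.92 for Rbl2 with Trmt112 and 0.96 for Tfdp2 with Sh3glb1. Within the family, and with group means subtracted, Rb1 and Tfdp2 (0.82), E2f2 and Tfdp2 (0.78) and E2f2 and Rb1 (0.75) went together among mice, as did Rbl2 and Tfdp1 (0.75) and E2f3 and Rbl2 (0.63). E2f2 was below 0 with Rbl1 (-0.23) and with Rbl2 (-0.16).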

How the data were processed

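Gene expression was measured in the whole blood of 56 mice, 1 per array, in 10 groups of 4 mice (day 4) or 6 mice (days 7, 9, 25 and 30). The authors deposited linear intensity values per array, which is the processed signal after background correction by Agilent Feature Extraction (version 10.7 in the submitters' processing notes and 11.5.1.1 in the file headers) with no scaling between arrays. They also deposited a table of log2 values of 14208 entries, made with BRB-ArrayTools, which equals the log2 signal of the scanner files up to 1 constant per array (largest range 1.79e-06). That table was used as an alternative.

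From the intensities, control spots and 9336 spots over all arrays that the scanner software marked as non-uniform or as population outliers were left out, spots of a probe were averaged as log2 values and the median over the 43020 non-control spots of an array was subtracted. A probe was kept where under 25% of arrays had it non-uniform or not above background, and the probe of highest mean stood for a gene. limma 3.58.1 (R 4.3.3) was fitted to 18802 genes for each day, with Benjamini-Hochberg adjustment, and a gene was called at p under 0.001 and a change of at least 2-fold. Differences between days and between control days came from limma F tests in 1 fit of all 10 groups, at an adjusted p under 0.05. Single values of arrays were compared with exact permutation tests. On simulated data with 18577 genes, 47%, 67%, 69%, 60% and 64% of changes of 1.2 log2 units were recovered at the 5 days in turn, and 90% to 98% of changes of 2 log2 units. The simulation drew independent normal noise around the mean of each gene. It held no slide effect, no brightness difference between groups and no background floor. These shares are therefore not the power for genes near background. The number of mice limits the precision. The limma p-values set a difference of group means against the spread between mice of a group, moderated over all genes. A difference between slides that hold a single group is part of that difference of means.

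Samples were grouped by their labels. The 10 genes and the lists of pathway and marker genes were chosen with earlier results of these data known. Named are the 10 genes, each called gene of the E2F, DREAM, G1 cyclin and kinase inhibitor lists, up to 4 genes of each other list called on the most days, and the 3 genes most alike to a called member; genes with only an array identifier, and some of the list genes, are left out of the text. Gene names and probe positions (mm9) were taken from the array files. Promoters are from RefSeq (GRCm38.p6), and no coordinates were moved between builds. Alternatives were other scalings, a normexp background correction (offset 50), the authors' values, other filters, averaged probes, replicate and slide blocks, 1 joint fit, other thresholds, and leaving out each array.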

Additional observations from a re-analysis of the deposited data

Results flagged for a closer look

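In 14 of the 100 sets of a gene in a group, 1 mouse lay far from the others of its group, where chance gives about 1 set in 20. At day 4 these were E2f1 in control replicate 2 at 2.18 (nearest other mouse 1.31), E2f4 in 90Sr replicate 1 at 2.80 (nearest 0.47) and Rb1 in the same mouse at 6.62 (nearest 6.44). At day 7 they were E2f4 in 90Sr replicate 6 at 0.44, Tfdp1 in the same mouse at -1.2, Tfdp2 in 90Sr replicate 3 at 9.85 and Rbl1 in control replicate 6 at 2.88. At day 9, control replicate 6 was low for E2f2 at 9.62 (nearest 10.22) and for Tfdp2 at 9.20 (nearest 10.04), and 90Sr replicate 1 was low for Rb1 at 5.70 (nearest 6.68). At day 25, control replicate 1 was high for E2f4 at 2.99. At day 30, control replicate 4 was low for E2f3 at -1.95 (nearest 0.72), for Rbl2 at -0.44 (nearest 0.67) and for Tfdp1 at -0.85 (nearest 0.69).

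Without the outlying mouse, the call of E2f2 at day 9 was lost (0.99), E2f4 at day 4 (-1.14) and Rb1 at day 9 (1.02) were newly called, and the other 11 changes stayed on the same side of the call.

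E2f2 (adjusted p = 0.0131), Rb1 (adjusted p = 0.00878) and Tfdp2 (adjusted p = 0.011) had changes that were unequal across the 5 days, by the limma F test of the interaction. None of them passed with slide as a random block.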

How the results depend on the processing

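Of the 13 called changes, none turned in sign in any alternative. Leaving out 1 array kept 124 of 144 values called, and the other alternatives kept 101 of 155. Of the 37 other changes, those alternatives newly called 24 of 435 values. The number of the 10 genes called at the 5 days in turn was 3, 2, 3, 2 and 3. It was 0, 3, 6, 0 and 2 with the 75th percentile, 2, 1, 6, 0 and 3 with the probes detected on all arrays, 2, 1, 3, 0 and 0 with quantile normalization, and 0 at every day with normexp (whose offset of 50 is above the array medians, so that array brightness remains in the values). It was 3, 4, 5, 2 and 2 with the authors' values (7 genes), 1, 1, 2, 1 and 2 with the filter of well above background on 75% of arrays (7 genes), 1, 1, 2, 2 and 3 with averaged probes and 1, 1, 4, 4 and 3 in 1 fit of all groups. With slide as a fixed block it was 3, 1, 0 and 0 at days 7, 9, 25 and 30, and as a random block 2, 3, 1 and 3. The fixed block takes each change only from the 2 control and 2 90Sr mice on the shared slide, so it repeats the comparison within slides. An adjusted p under 0.05 gave 3, 2, 4, 4 and 3 with 2-fold and 4, 7, 7, 5 and 5 without. Leaving out 1 array gave 2 to 4, 2 to 3, 2 to 5, 1 to 3 and 1 to 3. The highest count at day 9 (5) came without 90Sr replicate 1, and the lowest at day 30 (1) without 90Sr replicate 6. At day 25 the count of 1 came without control replicate 3 or 5 or 90Sr replicate 1, 5 or 6. The shares of all genes called under these alternatives are not given here. The counts describe how the calls of the 10 genes moved and do not set the family apart.

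Replicate numbers were not taken to pair the mice, since at no day were the deviations of all same-numbered mice correlated above 0.1 (3 of 4 pairs at day 4, and 1, 0, 1 and 3 of 6 at the later days). At day 4 all 4 mice were closest to their own number, with correlations of 0.092 to 0.282, which is a hint from the data and not from the design. With the replicate block 3, 1, 2, 3 and 3 genes were called.

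The test between days passed for 3 genes, 2 with the 75th percentile, 3 with quantile normalization, 2 with the variation filter and 0 with slide as a random block. The test between control days passed for 4, 2, 4, 2 and 3. The variation filter removed Rb1 and E2f8, so that neither gene was tested with it.

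Changes that were not called turned in sign as follows. With the 75th percentile E2f1 was 0.27 at day 25 and 0.01 at day 30, E2f2 0.44 and E2f8 0.33 at day 4, and Tfdp1 0.07 at day 9. With detected probes E2f1 was 0.18 at day 25, and E2f2 0.32 and E2f8 0.22 at day 4. Quantile normalization gave E2f8 0.17 at day 4. With normexp E2f1 was -0.13 at days 4 and 7, 0.04 at day 25 and 0.09 at day 30, Rb1 was -1.29 at day 4 and -0.43 at day 7, Tfdp2 was -1.39 at day 4 and -0.09 at day 7, and Rbl1 was 0.07 at day 30. The authors' values gave E2f1 -0.01 at day 7. With slide as a fixed block, which rests on the shared slide, E2f1 was 0.14 and Rbl1 0.03 at day 30, and E2f2 -0.24, E2f8 -0.06, Rb1 -0.32 and Tfdp2 -0.03 at day 25. Leaving out 1 array gave -0.06 to 0.08 for E2f1 at day 7, -0.17 to 0.15 for E2f2 and -0.29 to 0.05 for E2f8 at day 4, and -0.03 to 0.14 for Rb1 at day 25. The cause of these turns was not tested. For genes near background, such as E2f3, Rbl2 and Tfdp1, the signal limits the size of a difference that can be read.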
